A study of Mus musculus with 7 samples.

Results

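The acute phase proteins are plasma proteins that the liver releases in changed amounts during infection, injury and inflammation. The 10 genes described here were taken by name from the 32285 genes of the feature list. They encode the serum amyloid A apolipoproteins (Saa1, Saa2, Saa3 and Saa4), the orosomucoids (Orm1 and Orm2), haptoglobin (Hp), hemopexin (Hpx) and the 2 short pentraxins, serum amyloid P component (Apcs) and C-reactive protein (Crp). All 10 were listed in each of 7 droplet libraries of mouse liver tissue, in which transcripts carry unique molecular identifiers (UMIs) and are read from their 3′ ends. The labels call every library a murine model of hepatoblastoma. The study describes tumors of ABC-Myc mice, which carry an Alb-Cre transgene (Cre driven by albumin regulatory sequence, active in the hepatocyte lineage) and a CAG-driven MYC allele that Cre switches on, and healthy control livers. The libraries it lists as tumors are NEJ709, NEJ723, NEJ634 and NEJ687. No genotype or age is given per library in the labels, the description of NEJ709 carries the name NEJ634, and the labels set no groups or replicates. Values are therefore given library by library, and no difference between groups was tested.

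Interleukin-6, interleukin-1 and related cytokines, released mainly by macrophages and other leukocytes, drive hepatocytes to make these proteins through STAT3, NF-kappaB and C/EBP factors. In the mouse, Saa1, Saa2, the orosomucoids, haptoglobin, hemopexin and Apcs are inducible in hepatocytes, Saa4 is made constitutively, Crp responds less than in humans, and Saa3 is also made outside the liver, for example by macrophages and fat cells. Haptoglobin and hemopexin capture free haemoglobin and haem. Neutrophil precursors are known to make haptoglobin and orosomucoid and to store them in granules.

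Several of the genes lie side by side. In the GRCm38 coordinates of GENCODE M21, Saa3 (ENSMUSG00000040026, chr7:46711998-46715700), Saa4 (ENSMUSG00000040017, chr7:46727998-46732603) and Saa1 (ENSMUSG00000074115, chr7:46740497-46742980) are on the minus strand, and Saa2 (ENSMUSG00000057465, chr7:46751790-46754313) is on the plus strand. The cluster spans 42.3 kb, and the starts of Saa1 and Saa2 lie 8809 bases apart, with transcription running away from each other. Orm1 (ENSMUSG00000039196, chr4:63344560-63348163) and Orm2 (ENSMUSG00000061540, chr4:63362449-63365878) share the plus strand with Orm3 between them. Crp (ENSMUSG00000037942, chr1:172698055-172833031, plus strand) and Apcs (ENSMUSG00000026542, chr1:172893961-172895041, minus strand) are neighbours 60.9 kb apart. Hp (ENSMUSG00000031722) is at chr8:109575128-109579172 and Hpx (ENSMUSG00000030895) at chr7:105591613-105600137, both on the minus strand. The files do not state their build, so these positions are those of the annotation. In the last 500 bases of their transcripts, Orm1 and Orm2 shared 67 of 411 windows of 90 bases (16.3%), so reads from these windows cannot be told apart by sequence. No other pair of the 10 genes shared such a window.

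The stretches before the start sites of Saa1, Saa2 and Saa3 are shown because Saa1 and Saa2 had alike patterns over cells and libraries. Saa3 differed from both in its order of libraries and of cell classes. They come from RefSeq (GRCm38.p6), cut to bases that lie upstream in both RefSeq and GENCODE, and capitals mark matches to TTNNGNAA, a short form of the C/EBP motif, on either strand. They lie at chr7:46742981-46743230 (Saa1, minus strand), chr7:46751583-46751789 (Saa2, plus strand) and chr7:46715701-46715926 (Saa3, minus strand).
Saa1: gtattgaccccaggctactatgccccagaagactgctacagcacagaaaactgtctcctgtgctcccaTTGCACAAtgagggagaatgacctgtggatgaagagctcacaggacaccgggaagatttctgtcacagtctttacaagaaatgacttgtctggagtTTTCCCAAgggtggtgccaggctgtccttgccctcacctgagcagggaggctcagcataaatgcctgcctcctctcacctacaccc
Saa2: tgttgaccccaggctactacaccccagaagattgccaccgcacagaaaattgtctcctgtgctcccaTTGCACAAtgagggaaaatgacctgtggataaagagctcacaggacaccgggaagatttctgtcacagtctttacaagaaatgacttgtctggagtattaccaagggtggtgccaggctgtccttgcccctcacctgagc
Saa3: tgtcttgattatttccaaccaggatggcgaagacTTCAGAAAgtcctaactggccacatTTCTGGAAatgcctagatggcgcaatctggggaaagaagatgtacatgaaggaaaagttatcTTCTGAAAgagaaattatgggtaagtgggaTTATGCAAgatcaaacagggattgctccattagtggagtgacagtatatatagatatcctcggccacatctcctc

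Over 206 aligned bases, the Saa1 and Saa2 stretches were identical at 195 (94.7%). Promoter entries were found for 8 of the 10 genes, and 7 of these 8 held TTNNGNAA, against 36.8% of 32536 promoters of 250 upstream bases. Apcs held none. It held 1 match to the STAT motif TTCNNNGAA (7.04% of promoters) and 2 to CTGGGAA, the type II interleukin-6 element (9.14% of promoters). Among the 8 genes, no match was found to an NF-kappaB motif of 10 letters (1.40% of promoters) or to an HNF1 motif of 10 letters (0.375%). All motifs were searched on both strands, and a match is a description of the letters only.

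Total UMIs ranged from 40214395 to 132485391 per library, and 72669 cells were analysed. Of these cells, 1831 carried a barcode that was called in more than 1 library. Levels are UMIs of a gene per 1000000 UMIs of a pool of cells (CPM), and intervals in parentheses are exact 95% intervals that cover counting error only. Between genes, such levels are not corrected for length, although 3′ reading counts each transcript about once. Cell classes were set from marker genes that did not include the 10 genes. Hepatocyte-lineage-like cells numbered 5296 in NEJ634, 335 in NEJ638, 487 in NEJ654, 931 in NEJ677 and 297 in NEJ687. The 18 hepatocyte-lineage markers summed to between 16006 CPM in NEJ634 and 65204 CPM in NEJ677 in these cells, and between 16 and 18 of them were detected in each library. NEJ709 and NEJ723 had 11 and 12 such cells, which is below the limit of 20 set for a level. In these libraries, clusters c13 and c31.0, described below, were not put in the class. Their 153 and 2430 cells held 5955 and 5481 CPM of the same markers. In NEJ634 and NEJ687 nearly all cells of the class were in cluster c0, led by H19, Fabp6, Igf2 and Afp. In the other 3 libraries they were mostly in other clusters, c31.1 to c31.12 led by adult hepatocyte genes and c35. Free RNA differed as well: its share in T/NK-, B- and endothelial-like cells, estimated from the hepatocyte-lineage markers, was 39.2% in NEJ634 and between 6.80% and 16.9% in the other libraries. The profile of free RNA behind this estimate came from barcodes ranked 45000 to 90000, which held 210 to 952 UMIs in NEJ634 and at most 460 elsewhere.

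The serum amyloid A genes were asked first for their level in hepatocyte-lineage-like cells. Saa1, the main inducible serum amyloid of the mouse together with Saa2, was at 44.2 CPM in NEJ634 (41.6 to 47.0), 132 in NEJ638 (119 to 147), 78.7 in NEJ654, 42.9 in NEJ677 and 6.40 in NEJ687 (4.25 to 9.25). The highest level was in NEJ638 and the lowest in NEJ687, a 20.6-fold range. It was 3.08-fold without NEJ687, 12.3-fold without NEJ638 and 12.2-fold with each cell weighted equally. With each library clustered on its own and with classes set by a marker score of each cell, it was 59.4- and 60.7-fold, both over 6 libraries. The levels of NEJ634 and NEJ677 did not differ beyond their intervals. Saa2 was at 22.0 CPM in NEJ634, 48.0 in NEJ638, 43.4 in NEJ654, 14.8 in NEJ677 and 0.228 in NEJ687, the last from 1 UMI (0.00578 to 1.27). Its order of libraries was that of Saa1, and its range of 210-fold was 3.25-fold without NEJ687 and 378-fold with each cell weighted equally. NEJ638 and NEJ654 did not differ beyond their intervals.

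Saa3 had another order. It was at 125 CPM in NEJ634 (120 to 130), 47.7 in NEJ638, 14.99 in NEJ654, 9.66 in NEJ677 (6.69 to 13.5) and 49.6 in NEJ687. NEJ634 was highest, and NEJ638 and NEJ687 did not differ beyond their intervals. The range, 12.9-fold, was 5.13-fold without NEJ634, 8.34-fold without NEJ677 and 21.003-fold with each cell weighted equally. Saa4, the constitutive member, was at 54.6 CPM in NEJ634, 98.7 in NEJ638, 76.5 in NEJ654, 73.3 in NEJ677 and 53.7 in NEJ687, a 1.84-fold range. This narrow range depended on how the cells were classed: it was 14.8-fold with each library clustered on its own and 6.17-fold by the marker score, both over 6 libraries. In the small pools, NEJ709 had 0 UMIs of Saa1 and of Saa2 (at a limit of 3 UMIs, a count of 0 allows up to 6.15 CPM), 21 of Saa3 and 18 of Saa4. NEJ723 had 2 UMIs of Saa1, 3 of Saa2, 9 of Saa3 and 5 of Saa4.

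The orosomucoids, plasma carriers of basic drugs and lipids that also act on leukocytes, had wide ranges. Orm1 was at 27.2 CPM in NEJ634 (25.1 to 29.4), 367 in NEJ638 (344 to 390), 1443 in NEJ654 (1389 to 1498), 909 in NEJ677 (877 to 941) and 35.6 in NEJ687 (30.3 to 41.7). The intervals of the 5 libraries did not overlap, and NEJ654 was 53.0 times as high as NEJ634. This range was 33.4-fold without NEJ654, and 1943- and 1377-fold, over 6 libraries, with each library clustered on its own and by the marker score. Orm2 was far lower, at 3.34 CPM in NEJ634, 13.5 in NEJ638, 46.6 in NEJ654, 17.3 in NEJ677 and 0.685 in NEJ687. The lowest rested on 3 UMIs, and the range of 67.9-fold was 14.0-fold without NEJ687, 25.3-fold without NEJ654, 10.7-fold with each cell weighted equally and 103-fold with a minimum of 1000 UMIs. NEJ654 was highest for both genes, whose reads are in part alike. Among the small pools, NEJ709 had 0 UMIs of Orm1, and NEJ723 had 8.

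Hemopexin and haptoglobin had the highest levels of the 10 genes in these cells in 4 libraries. In NEJ654 Hp and Orm1 did not differ beyond their intervals. Hp was at 747 CPM in NEJ634 (736 to 758), 1274 in NEJ638, 1433 in NEJ654, 1070 in NEJ677 and 700 in NEJ687 (676 to 726), a 2.05-fold range. Hpx was at 822 CPM in NEJ634, 3227 in NEJ638, 3139 in NEJ654, 2130 in NEJ677 and 969 in NEJ687, a 3.92-fold range. With each library clustered on its own the ranges, over 6 libraries, were 6.28-fold for Hp and 7.83-fold for Hpx. Without the low-albumin cluster c35, described below, that of Hp was 3.47-fold. Hpx ranged from 4.15- to 6.44-fold in 5 other alternatives. For both genes NEJ634 and NEJ687 were the lowest libraries, and for Hpx the intervals of NEJ638 and NEJ654 met. In the small pool of NEJ709 Hp was at 977 CPM and Hpx at 854, and in NEJ723 they were at 622 and 1492.

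The short pentraxins bind bacterial and cell surface ligands and activate complement. Apcs was at 42.8 CPM in NEJ634, 648 in NEJ638 (618 to 680), 105 in NEJ654, 64.8 in NEJ677 and 55.1 in NEJ687. Crp was at 38.4 CPM in NEJ634, 573 in NEJ638 (545 to 603), 176 in NEJ654, 112 in NEJ677 and 30.8 in NEJ687. For both genes NEJ638 stood far above the other 4 libraries, and the ranges were 15.2-fold for Apcs and 18.6-fold for Crp. Without NEJ638 they were 2.46- and 5.71-fold, and that of Crp was 38.7-fold, over 6 libraries, with each library clustered on its own.

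**Figure D1:**
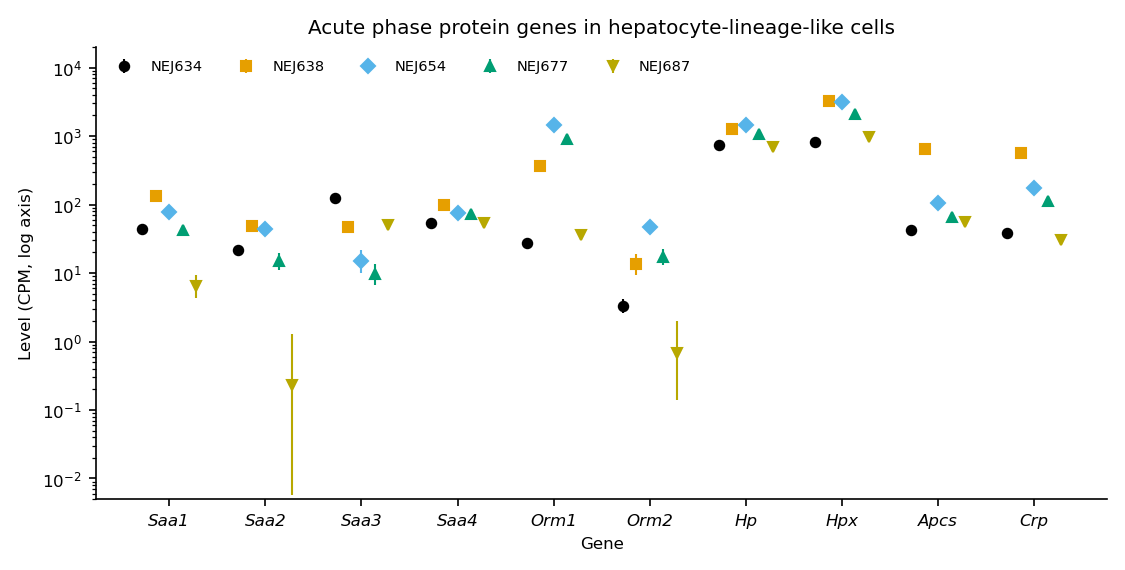
Level (CPM, log axis) of each acute phase protein gene in hepatocyte-lineage-like cells of the 5 libraries with at least 20 such cells. Points are libraries and bars are exact 95% Poisson intervals, and Saa4, Hp and Hpx stay within a 3.92-fold range while Orm1 spans 27.2 to 1443 CPM.

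The share of all genes with like ranges was set beside these values. Of the 10 genes, 7 had a highest library at least 4-fold over the lowest (Saa1, Saa2, Saa3, Orm1, Orm2, Apcs and Crp), while 32.3% of the 9138 genes with at least 10 CPM in 1 of the libraries did. The median range was 16.9-fold for the 10 genes and 2.82-fold for all genes. With each library clustered on its own, over 6 libraries, all 10 had a range of at least 4-fold, beside 41.3% of all genes. Leaving out 1 library gave counts of 5 to 7, beside 25.3% to 29.7% of all genes, with both lowest without NEJ687. Albumin, which falls in the acute phase response and also marks mature hepatocytes, was at 3996 CPM in NEJ634, 40462 in NEJ638, 54236 in NEJ654, 26143 in NEJ677 and 3089 in NEJ687. The libraries lowest in Alb, NEJ634 and NEJ687, were also lowest in Saa4, Orm1, Orm2, Hp, Hpx, Apcs and Crp. They are also the ones of these 5 libraries that the study lists as tumors. Saa1, Saa2 and Saa3 did not follow this order. Saa1 and Saa2 were lowest in NEJ687, but in NEJ634 they were at 44.2 and 22.0 CPM, against 42.9 and 14.8 in NEJ677. Saa3 was highest in NEJ634. Whether the ranges follow tumor against other tissue, the maturity of the cells, free RNA or an acute phase response was not tested.

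Clusters within the class, built without the 10 genes, showed how unevenly they were held. In NEJ638, Saa1 was at 329 CPM in the 98 cells of c31.2 (293 to 368), at 32.5 in the 105 cells of c31.1 and at 22.9 in the 72 cells of c31.3. Saa2 was at 126 CPM in c31.2 and 6.10 in c31.1, and Saa3 at 91.0 and 35.6. Clusters c31.1 and c31.2 both had the cytochrome genes of the central lobule Cyp2c29 and Cyp2e1 among their leading genes, and their Hp levels were 1232 and 1400 CPM. Most Saa1 of this library was thus in 1 of 3 large clusters. Cluster c31.3, with Cyp2f2 among its leading genes, a gene of the portal side of the lobule, was highest of these 3 in Orm1 (674 CPM against 279 and 232), Orm2 (33.5), Saa4 (159) and Hpx (4985). In NEJ654, the 33 cells of c31.7 held 210 CPM of Saa1 and 170 of Saa2, while the 66 cells of c31.9 held 16.2 CPM of Saa1 and 0 UMIs of Saa2, which by the same limit of 3 UMIs allows up to 16.2 CPM. Their Orm1 levels were 2037 and 1402 CPM. Orm1 was high in all 4 of the c31 clusters of this library, and Saa1 was not. Saa3, like Saa1 and Saa2, was highest in c31.2 of NEJ638 (91.0 CPM) and in c31.7 of NEJ654 (55.7). In NEJ677 Saa3 was highest in c31.8, and Saa1 and Saa2 in c31.11.

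Cluster c35 was low in albumin and in most members. It held 789 cells of NEJ677, 269 of NEJ654 and 20 of NEJ638, with Alb at 3686, 6124 and 2917 CPM. In NEJ677 its Hpx level was 341 CPM, against 3827 to 7059 CPM in c31.8, c31.11 and c31.12, and Orm1 was at 484 against 1322 to 2027. The levels given above for NEJ654 and NEJ677 average over c35 and the c31 clusters. How much of the RNA of c35 was free RNA was not tested. Without c35, 8 of the 10 genes had a range of at least 4-fold, beside 34.0% of all genes.

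**Figure D2:**
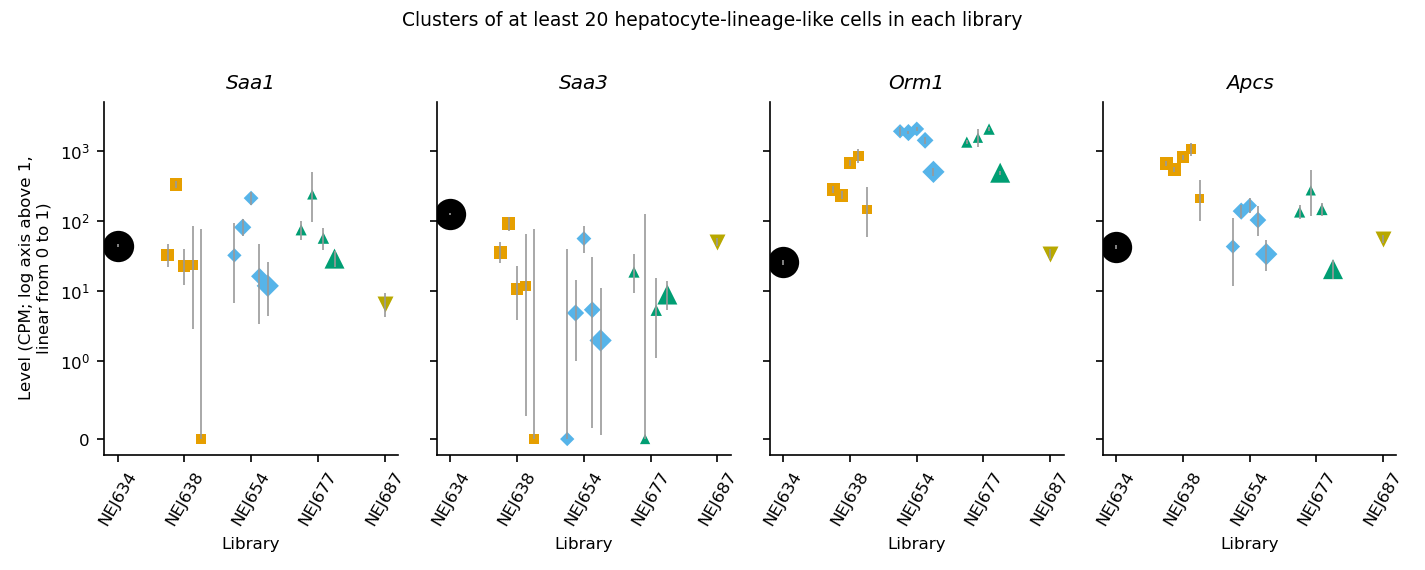
Level (CPM, log axis above 1) of Saa1, Saa3, Orm1 and Apcs in each cluster of at least 20 hepatocyte-lineage-like cells, by library. Each point is a cluster, its area grows with the number of cells, bars are exact 95% Poisson intervals, and in NEJ638 Saa1 is at 329 CPM in 1 cluster and at or below 32.5 in the others.

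Shares of cells with a UMI were compared after each cell was thinned to 500 UMIs, beside T/NK- and B-like cells of the same library, which should lack these genes. An Apcs UMI was found in 23.0% of hepatocyte-lineage-like cells of NEJ638 (18.6 to 27.9) and in 2.02% to 4.31% of those of the other 4 libraries, against at most 0.686% in lymphocytes. Before thinning, Apcs was seen in 80.3% and 2.57% of these NEJ638 cells, whose median UMIs were 8516 and 1496. Orm1 was found in 31.0% of cells in NEJ654, 25.6% in NEJ677 and 15.2% in NEJ638, but in 1.19% in NEJ634 and 5.39% in NEJ687. The lymphocyte shares of Orm1 were 2.27% in NEJ654, 1.59% in NEJ677, 0.514% in NEJ638, 0.190% in NEJ634 and 0 of 504 cells in NEJ687, which at 3 cells allows up to 0.595%. Before thinning, the highest and lowest libraries had Orm1 in 62.2% of cells in NEJ654, against 8.31% of its lymphocytes, and 8.14% in NEJ634, against 0.380%. Saa1 was seen in few cells even where its level was high, 4.48% in NEJ638 (2.53 to 7.28) against 0.0857% of its lymphocytes, and in 17.0% and 0.257% before thinning. Saa2 was seen in 9 of the 91 cells of NEJ634 with a thinned Saa1 UMI (9.89%), against 0.557% of the rest.

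Where else the genes were read was examined next. Hpx was the 1 gene of the 10 whose hepatocyte-lineage level lay above that of each other named class in all 5 libraries beyond the intervals, against 2.54% of all genes. By the values alone the class was first in 5 libraries for 7 genes (Saa1, Saa2, Saa4, Orm2, Hpx, Apcs and Crp), in 3 for Orm1, and in 1 for Saa3 and for Hp. Of all genes, 8.35% were first in each of the 5. Small pools of other classes had wide intervals, which limits the first count. The other classes included 1, made of clusters c13 and c31.0, whose name does not hold for c13. With c13 left unnamed, Apcs was highest in all 5 libraries as well, and the count was 2. The 2.54% of all genes is for the main naming. Against T/NK- and B-like cells, 8 of the 10 genes were at least 4-fold higher in hepatocyte-lineage-like cells in each library (all but Saa2 and Orm2), against 8.15% of genes. Saa2 and Orm2 had no more than 3 UMIs in both pools of NEJ687, which gives no ratio, and in NEJ634, with 0 lymphocyte UMIs, they were at least 12.8- and at least 1.94-fold higher. In the other 3 libraries Saa2 was 26.4- to 78.5-fold and Orm2 26.9- to 93.0-fold higher, from 1 to 4 lymphocyte UMIs. In endothelial-like cells of NEJ634, Saa2 was at 19.2 CPM (86 UMIs), at least 11.1-fold over lymphocytes, beside 22.0 CPM in hepatocyte-lineage-like cells. Saa1 and Saa3 were 4.46- and 3.78-fold over lymphocytes in the same endothelial-like cells. Saa1 passed in NEJ687 on 1 lymphocyte UMI, at 13.02-fold (2.15 to 532). Orm1 passed in NEJ634 on 2 lymphocyte UMIs, at 27.2 CPM, while conventional dendritic-like cells there held 27.4 CPM (36 UMIs). Hpx was 8.62-fold higher in NEJ634 (7.40 to 10.1), where free RNA was highest, and 36.9- to 57.7-fold higher in the other 4 libraries. In the other classes only genes of at least 10 CPM in 1 pool were asked for the same 4-fold. None passed of 7 in endothelial- (7.57% of all genes did), 4 in macrophage- (4.21%), 6 in conventional dendritic- (1.09%), 4 in plasmacytoid dendritic- (2.53%), 2 in erythroid- (2.65%), 4 in megakaryocyte- (1.38%), 3 in mesenchymal- (15.6%) and 4 in basophil- and mast-like cells (2.93%). A class with 0 UMIs of a gene, or a pair with no more than 3 UMIs on both sides, was not counted as passing.

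Haptoglobin reached the range of the hepatocyte lineage in granulocytes. In neutrophil-like cells, Hp was at 674 CPM in NEJ634, 624 in NEJ638, 1547 in NEJ654, 1121 in NEJ677, 1852 in NEJ687, 945 in NEJ709 and 1133 in NEJ723. In myelocyte-like cells, the immature neutrophils that make secondary granules, it was at 952 CPM in NEJ634, 890 in NEJ638, 2093 in NEJ687, 1058 in NEJ709 and 1148 in NEJ723. The ranges of neutrophil-, hepatocyte-lineage- and myelocyte-like cells over libraries overlapped, so no order of the 3 classes can be given. In lymphocytes Hp was at 125 CPM in NEJ634 and between 18.2 and 43.4 in the other libraries. The fold of neutrophils over lymphocytes ran from 5.41 in NEJ634 (4.65 to 6.31) to 102 in NEJ687 (73.7 to 145). Of the 8 genes with at least 10 CPM in a neutrophil pool, Hp alone was 4-fold over lymphocytes in each of 7 libraries, against 3.99% of genes. After thinning, an Hp UMI was found in a larger share of neutrophil- than of hepatocyte-lineage-like cells in NEJ654 (46.8% against 32.2%), NEJ677 (40.5% against 20.4%) and NEJ687 (53.0% against 23.2%), and in a smaller one in NEJ638 (24.5% against 37.3%). Of the hepatocyte-lineage-like cells, 269 of 487 in NEJ654 and 789 of 931 in NEJ677 were in the low-albumin cluster c35. There Hp was at 299 and 305 CPM, against 2096 in c31.6 of NEJ654 and 3866 in c31.11 of NEJ677. Shares without c35 were not compared. In NEJ634 the shares, 24.6% and 26.3%, did not differ beyond their intervals, and 7.97% of lymphocytes held one, against 1.80% to 2.41% in NEJ638, NEJ654 and NEJ677. In NEJ687, 63.1% of myelocyte-like cells and 1.39% of lymphocytes did. Before thinning, Hp was seen in 80.4% of neutrophil-, 98.7% of myelocyte- and 73.4% of hepatocyte-lineage-like cells and 5.75% of lymphocytes of NEJ687, whose median UMIs were 1962, 5839, 8238 and 3354.

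Hp was also read in promyelocyte-like cells, the first granule-making stage, at 258 to 760 CPM in 4 libraries, and in monocyte-like cells at 209 to 1354 CPM in 7. Macrophage-like cells were at 160 CPM in NEJ634 and between 19.8 and 78.2 elsewhere, below the monocyte-like cells of the same library in each of 7. Hp and Saa3 were the genes at least 4-fold over lymphocytes in promyelocytes in each of 4 libraries, among 7 tested and against 1.09% of all genes, and the Saa3 interval began at 1.81 in NEJ709.

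Outside the hepatocyte lineage, Orm1 was highest in the myelocyte stage of granulocytes in the 5 libraries with such cells. It was at 88.9 CPM in NEJ634, 102 in NEJ638, 276 in NEJ687, 139 in NEJ709 and 148 in NEJ723 in myelocyte-like cells. In NEJ634 and NEJ687 this was above the hepatocyte-lineage level of the same library. In neutrophil-like cells Orm1 was at 6.55 to 72.4 CPM and in promyelocyte-like cells at 1.12 to 19.4. Myelocytes over lymphocytes gave 7.49-fold in NEJ638 (3.55 to 15.02), 77.4-fold in NEJ634 (21.2 to 642, from 2 lymphocyte UMIs) and at least 29.1-fold in NEJ709, where 0 lymphocyte UMIs were set to 3. Of 4 genes tested in myelocytes, Orm1 and Hp reached 4-fold in each of 5 libraries, against 2.53% of genes. In neutrophils of NEJ638 and NEJ654 Orm1 was 1.14-fold (0.342 to 3.0) and 1.30-fold (0.672 to 2.30) the lymphocyte level. Orm2 gave no more than 0.762 CPM in any myelocyte pool.

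Saa3 reached its highest level in a named class in monocyte-like cells. There it was at 55.4 CPM in NEJ634, 8.11 in NEJ638, 3.21 in NEJ654, 197 in NEJ677, 617 in NEJ687, 14.9 in NEJ709 and 197 in NEJ723. NEJ687 was highest and NEJ654, with 2 UMIs, lowest. A minority of the cells held it. Before thinning, a Saa3 UMI was seen in 32.3% of the monocyte-like cells of NEJ687, 14.1% in NEJ723, 7.79% in NEJ709, 6.82% in NEJ634, 5.24% in NEJ677, 1.73% in NEJ638 and 1.12% in NEJ654, against 0.0710% to 3.795% of lymphocytes. After thinning, the share in NEJ687 was 12.2% (8.97 to 16.0), against 0.198% of its lymphocytes, and the tenth of its cells with most thinned Saa3 UMIs held 94.5% of them. Of 5 genes tested, none was past 4-fold over lymphocytes in each of 7 libraries, against 3.46% of genes. Saa3 was past it in 6, while in NEJ654, with 2 UMIs against 1, no ratio can be given. In NEJ638 it had 4 UMIs against 1, and the ratio in NEJ709, 4.64, had an interval from 0.990. Most of these cells were in cluster c12, led by F13a1, Vcan and Chil3 and also holding Spp1, Gpnmb and Trem2 among its leading genes. In macrophage-like cells Saa3 was at 13.8 CPM in NEJ634 and at most 6.39 elsewhere. Neutrophil-like cells held 9.45 to 62.2 CPM in 6 libraries and 0 UMIs in NEJ709, where 3 UMIs would be 6.62 CPM. Promyelocyte-like cells held 146 CPM in NEJ634 and 18.0 to 24.4 in 3 others. In NEJ634, 37 promyelocyte-like cells of cluster c7.2 held 587 CPM of Saa3 and also had Afp, H19 and Fabp6 among their leading genes, so hepatocyte-lineage and granulocyte genes were mixed there.

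**Figure D3:**
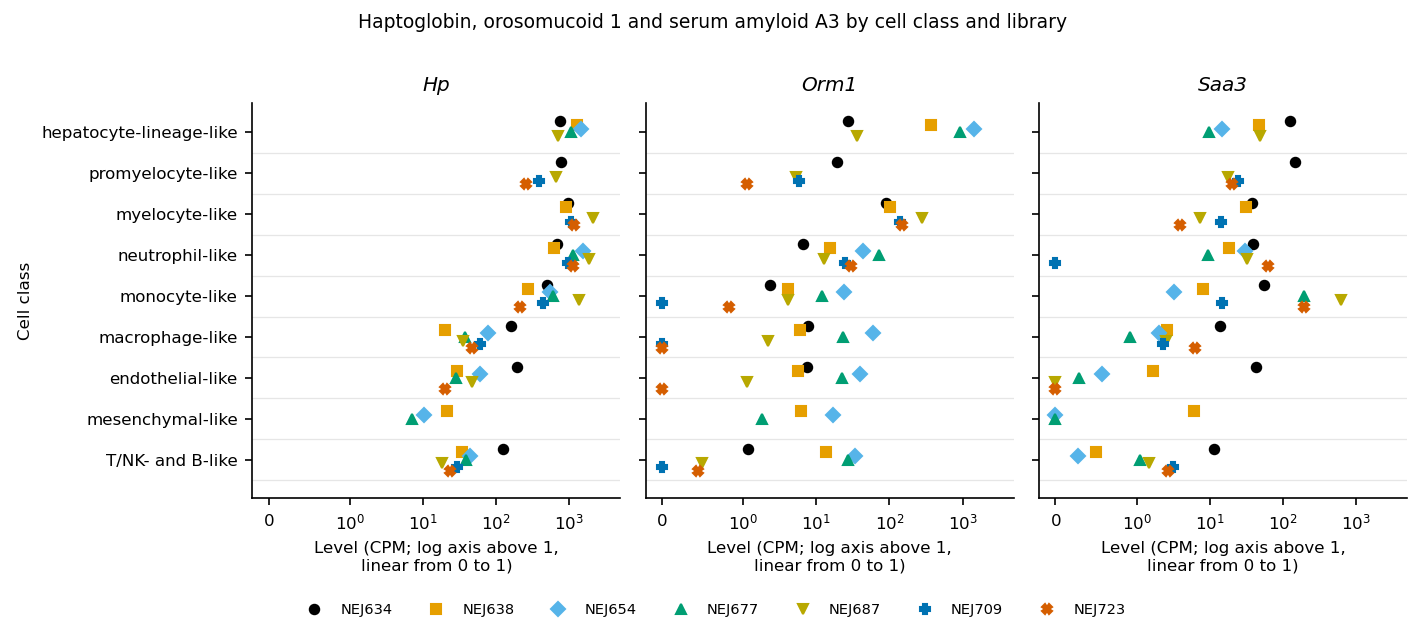
Level (CPM, log axis above 1) of Hp, Orm1 and Saa3 in 8 cell classes and in pooled T/NK- and B-like cells, with a point for each library that had at least 20 cells. Hp is near 1000 CPM in hepatocyte-lineage-, neutrophil- and myelocyte-like cells, Orm1 is high in hepatocyte-lineage- and myelocyte-like cells, and Saa3 reaches 617 CPM in monocyte-like cells of NEJ687.

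Clusters c13 (3183 cells) and c31.0 (46 cells) matched the biliary epithelial markers, but the leading genes of c13 went against that name. They held Ctrb1, Clps, Try4, Cela2a and Reg1, genes of the exocrine pancreas. These 5 genes were at 20507 to 50507 CPM in the 20 cells of c13 in NEJ638, and at no more than 3.10 CPM in those of NEJ634, NEJ687, NEJ709 and NEJ723. The biliary markers summed in c13 to 1.84 CPM in NEJ687, 1082 in NEJ723, 1687 in NEJ709 and 5195 in the same 20 cells of NEJ638. In c31.0 they summed to 19181 to 30619 CPM in NEJ634, NEJ638, NEJ654 and NEJ677, and to 1206 and 1305 in NEJ723 and NEJ687. The hepatocyte-lineage markers, over both clusters together, summed to 5481 CPM in NEJ723 and 5955 in NEJ709, against 534 and 267 in lymphocytes. They summed to 835 CPM in NEJ687, against 301. Cluster c13 thus held unlike cells and is called by its number only. In c13, Hpx was at 348 CPM in NEJ634, 78.1 in NEJ638, 29.4 in NEJ687, 580 in NEJ709 and 526 in NEJ723. Lymphocytes of these libraries held 95.4, 87.4, 20.6, 32.0 and 50.7 CPM of Hpx, so c13 was above them beyond the intervals in NEJ634 (288 to 416), NEJ709 and NEJ723, and not in NEJ638 and NEJ687. Apcs was at 29.6 CPM in NEJ709 and 34.6 in NEJ723 and at 2.30 CPM in NEJ687. In NEJ634 and NEJ638 it was at 2.95 and 19.5 CPM, each from 1 UMI, beside 7.47 and 15.6 CPM in lymphocytes. Over both clusters together, Crp was the gene of 7 tested with a value at least 4-fold over lymphocytes in each library, against 0.462% of genes, but the intervals of the ratio began at 0.980 in NEJ687 and 0.769 in NEJ709. In NEJ687, 4 of the 10 Crp UMIs were in c13, at 1.84 CPM against 0.983 in lymphocytes, and the rest were in 2 cells of c31.0, without which Crp would not pass there. No library had more than 17 cells of c31.0, too few for a level.

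The share of a gene's UMIs by cell class follows from these levels and from how many cells of a class a library held. Granulocytes of the 3 named stages gave 62.5% of Hp UMIs in NEJ687 and 57.9% in NEJ723, from 18.5% and 8.38% of the cells. In NEJ638 they gave 7.42%, and hepatocyte-lineage-like cells with clusters c13 and c31.0 gave 79.8%. For Orm1 the contrast was wider, with 93.9% of 510 UMIs from granulocytes in NEJ723 and 81.6% of 1340 in NEJ687, against 1.63% in NEJ638 and 0.372% in NEJ654. Saa3 UMIs came from monocyte- and macrophage-like cells for 78.7% in NEJ687, 70.2% in NEJ723 and 70.1% in NEJ677. In NEJ634, NEJ638 and NEJ654 they gave 4.17%, 4.32% and 9.76%, while hepatocyte-lineage-like cells with c13 and c31.0 gave 58.8%, 78.4% and 34.1%. In NEJ709, unnamed cells, 12879 of its 14054, held 78.3% of Hp, 77.0% of Orm1 and 87.2% of Saa3 UMIs.

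**Figure D4:**
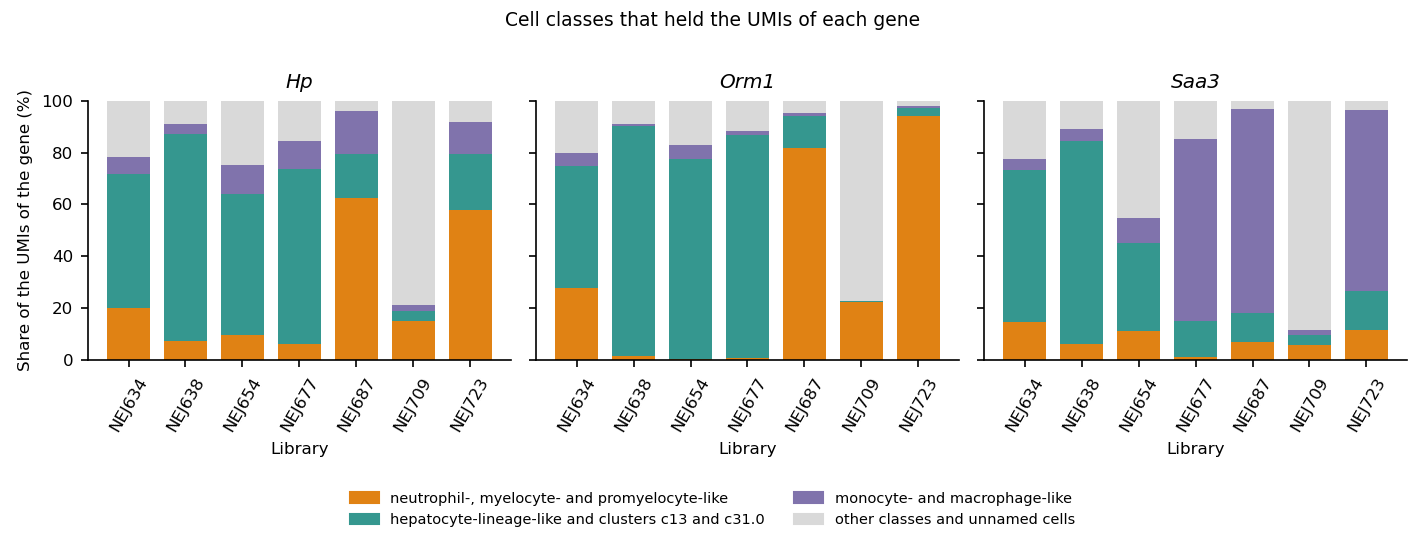
Share (%) of the UMIs of Hp, Orm1 and Saa3 held by groups of cell classes in each library, as stacked bars that sum to 100. In NEJ687 and NEJ723 granulocyte classes hold most of Hp and Orm1, and monocyte- and macrophage-like cells hold most of Saa3, while in NEJ634 and NEJ638 most Saa3 is in the hepatocyte-lineage group.

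Levels over all cells were set against the ambient profile. This is the sum of barcodes ranked 45000 to 90000 by UMIs, taken as the background of free RNA. In NEJ634 these barcodes held 210 to 952 UMIs, in part above the 500 UMIs asked of a cell. In the other libraries they held at most 460. Whether the NEJ634 profile holds free RNA alone was not tested. The level in cells lay above the ambient level beyond the intervals in 17 of 70 pairs of gene and library. All 17 came from the 9 genes, all but Orm2, that had at least 10 CPM over all cells in at least 1 library (63 pairs). Over all genes that met this limit, 52.5% of pairs lay above. Of the 17, 9 were in NEJ634, where all of the genes but Orm2 passed, and 8 were elsewhere: Saa3 in NEJ687 and NEJ723, Hp in NEJ687 and NEJ709, Orm1 in NEJ723, and Saa4, Apcs and Crp in NEJ638. In NEJ654 and NEJ677 none passed. Orm1 there was at 162 and 134 CPM over cells and at 361 and 356 CPM in the ambient profile. In the low-albumin cluster c35 of these libraries, Orm1 was at 498 and 484 CPM. A level over all cells averages over classes that lack the gene, so a pair below ambient does not show that the gene was only background. When ambient barcodes that had been called as cells in other libraries were dropped, 15 pairs passed.

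**Figure D5:**
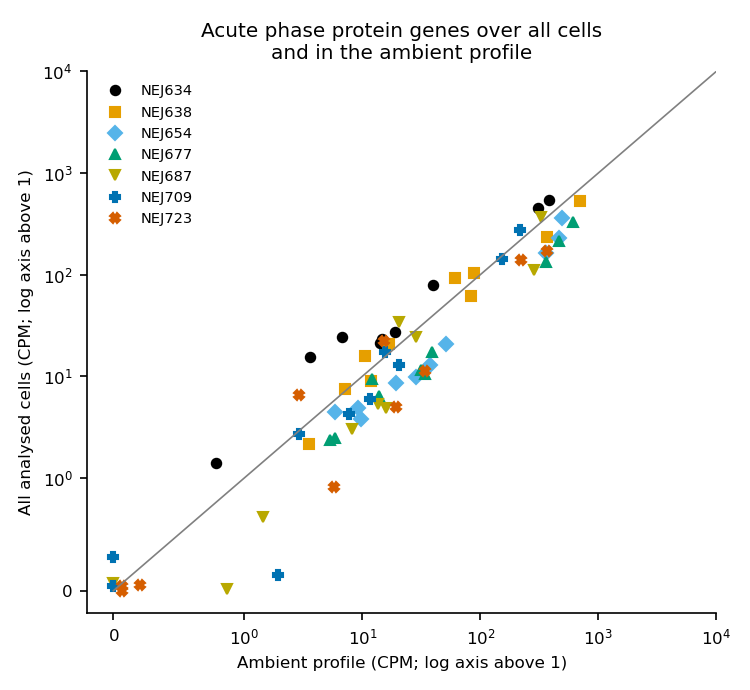
Level (CPM, log axes above 1) of the 10 genes over all analysed cells against the ambient profile of the same library, with 1 point for each gene and library and a line of equal level. All 10 points of NEJ634 lie above the line, and most points of the other libraries lie below it. The ambient barcodes of NEJ634 held up to 952 UMIs, against at most 460 elsewhere.

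The rest of the acute phase response was read in the same cells. All 18 other acute phase genes had at least 10 CPM in hepatocyte-lineage-like cells, 8 were highest there in each library (2.54% of all genes were), and 13 had a range of at least 4-fold (32.3% of all genes did). The fibrinogen chain Fgb, at 1410 to 2547 CPM, complement C3, at 1032 to 4194, and the metallothionein Mt1, at 426 to 3353, were among the highest. Of the 7 genes whose proteins fall in the response, 5 were highest in these cells in each library and 4 had a 4-fold range, beside the same 2.54% and 32.3%. Of the 12 transcription factors and signalling genes, 2 passed 4-fold, a smaller share than the 32.3% of all genes: Socs3, a feedback inhibitor of STAT3 signalling, and Nfkbia, an inhibitor of NF-kappaB. Socs3 was at 65.8 CPM in NEJ634, 84.1 in NEJ638, 15.5 in NEJ654, 11.7 in NEJ677 and 45.2 in NEJ687, and so was lowest in the libraries highest in Orm1. Of the 6 cytokine receptors measured at 10 CPM or more, 2 passed 4-fold, close to the share of all genes (32.3%). These were Lifr (9.82 to 294 CPM) and Il1rap (7.08 to 69.8 CPM), both highest in NEJ638.

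Of the 8 inducing cytokines, Il1b and Tnf reached 10 CPM in hepatocyte-lineage-like cells, both highest in NEJ634 (141 and 15.7 CPM), where lymphocytes held 137 CPM of Il1b. Neutrophil-like cells held most, with Il1b at 1958 to 11356 CPM, Tnf at 97.2 to 463 and Osm at 88.5 to 280. Il6 was at 11.5 to 33.6 CPM in macrophage-like cells of 6 libraries and at 0 UMIs in NEJ723, where 3 UMIs would be 2.13 CPM. In basophil- and mast-like cells, a class chosen after its values were seen, it was at 608 CPM in NEJ638 and 322 in NEJ723. Of the 11 receptors and handling genes, the highest level in macrophage-like cells was that of Hmox1, which degrades haem (651 to 3148 CPM), followed by Lrp1, the hemopexin receptor (334 to 614 CPM), and Fcgr1, a receptor that can bind pentraxins (90.9 to 274 CPM).

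Genes with the most alike pattern over the 86 pools of library and class, 7 of them of clusters c13 and c31.0, were found by Pearson's r of log2(CPM + 1) among 14869 genes, as a description, since pools of 1 library share free RNA. For Saa1 these were Cyp2c23 (r = 0.85), Aspdh (0.85), Cyp4a14 (0.83), Ces1e (0.83) and Cyp3a25 (0.82). For Orm1 they were Mug1 (0.72), Hal (0.70), Akr1c6 (0.69), Slc27a5 (0.69) and Agxt (0.69). Both lists hold genes known from hepatocytes. For Hp they were Sgms2 (0.86), Dgat2 (0.85), Pygl (0.83), F5 (0.79) and Tmem38b (0.76), and for Saa3 F10 (0.71), Abcd2 (0.70), Tmem38b (0.69), Dgat2 (0.67) and Sgms2 (0.64), so 3 genes stood in both lists. Among the 10 genes, the closest pairs were Apcs and Crp (0.86), Saa1 and Saa2 (0.85) and Hpx and Apcs (0.84), and Saa3 was closest to Hp (0.73).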

How the data were processed

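The authors deposited unfiltered matrices of whole UMI counts for each gene in each barcode, without normalization. They were made with Cell Ranger 4 per the file headers, while the submitters' processing notes give Cell Ranger 6.0 and the study's methods add that introns were counted. Tissue was perfused and digested with collagenase type IV before droplet capture.

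Cells were called in code written after the rules of Cell Ranger, with an ambient profile from barcodes ranked 45000 to 90000, and 81548 of 87934 passed the limits of over 500 UMIs and no more than 20% of them mitochondrial. The 8879 with the highest doublet scores (Scrublet in scanpy 1.11.5, at 0.8% per 1000 cells) were removed. Leiden clustering used 2000 variable genes, 40 components and resolution 1, without the 73 genes of the lists, with a second round inside clusters that failed the naming limits, and gave 110 clusters. Of these, 58 took a class from 149 markers of 18 classes, by a mean log2 fold of at least 1.5, a lead of 1 and 3 markers up 2-fold, and 52 with 19738 cells stayed unnamed. These limits were set after seeing the data. One class, clusters c13 and c31.0, is called by cluster because the leading genes of c13 went against its name. A class of a library was reported from 20 cells.

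Levels were summed counts per 1000000 UMIs, with exact Poisson intervals for counts, Clopper-Pearson intervals for shares and exact conditional intervals for ratios. A count of 0 was set to 3 UMIs in ratios and ranges, which makes them bounds, and a class at 0 was never counted as past a fold. The labels assigned 0 of 7 libraries to a group, so libraries were not treated as replicates. All 10 genes were named. Other lists are given by counts and up to 3 genes of highest level, with Alb and the genes past 4-fold in lists of factors and receptors added after their values were seen. Genes most alike were the 5 of highest r. Members and lists were chosen with earlier results of these data known. Calling, levels, ranges and naming were tested on simulated data. Versions were numpy 2.4.6, pandas 2.3.3, scipy 1.17.1 and Python 3.11.15. The spatial, bulk and screening data were not analysed here. Alternatives changed the calling, quality limits, doublets, clustering, total, weighting, ambient subtraction and cell minimum. Those that left out a library, cluster c35 or the name of c13 were chosen after seeing the data.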

Additional observations from a re-analysis of the deposited data

How the results depend on the processing

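The number of genes with a 4-fold range was 7 and ran from 5 to 10 over 18 alternatives, beside 25.3% to 41.3% of all genes. The number highest in hepatocyte-lineage-like cells in each library was 1, beside 2.54% of all genes. It became 0 with each library clustered on its own, and 2 with a minimum of 1000 UMIs, with classes reported from 50 cells, with cluster c13 left without a name, or without NEJ687. The pairs above ambient numbered 17, beside 52.5% of pairs over all genes. They were 8 without NEJ634, and ran from 13 to 17 in the other 13 alternatives. For the counts of highest genes and of pairs, shares of all genes are given for the main setting only. Of 48 log2 ratios to lymphocytes, each above 0 and 2 of them lower bounds, 622 of 624 values under alternatives were above 0. The other 2 were of Orm2 in NEJ634, a lower bound set from 0 lymphocyte UMIs, which gives no direction when it lies below 0. The cause of these moves was not tested. No paired analysis was possible because the labels give no replicate numbers. Counts of 9 UMIs or fewer stand behind Saa2 and Orm2 in NEJ687 and behind the serum amyloids of NEJ723 in hepatocyte-lineage-like cells, and only 11 and 12 such cells behind every gene in NEJ709 and NEJ723. The named classes depend on marker limits, and cells left unnamed, above all in NEJ709, are in no class level.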

Other observations

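The highest Saa1 and Saa2 levels of any cluster were in 2 unnamed clusters of NEJ634, singled out after their values were seen. Cluster c6.2 (42 cells) held 631 CPM of Saa1 (524 to 753), 569 of Saa2, 806 of Saa3 and 2398 of Hp. Cluster c6.6 (45 cells) held 455 CPM of Saa1, 411 of Saa2 and 0 UMIs of Saa3. Both had Ngp and Ltf, genes of neutrophil secondary granules, among their leading genes beside Saa1 and Saa2, although the Saa genes had been left out of clustering. Cluster c25 (126 barcodes, 99.2% from NEJ634) held 152 CPM of Saa1 and 118 of Saa2 and was led by Hamp2, the protease Elane, Saa2 and Saa1, with Cyp2c29, Cyp7a1 and Tdo2 also among its leading genes. Hepatocyte and granulocyte genes thus stood side by side in these barcodes. NEJ634 was also the library of highest free RNA share (39.2%), and the part of free RNA or of more than 1 cell per barcode was not tested.

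The iron hormone gene Hamp, which responds to interleukin-6, and the related Hamp2 did not share the library order of Saa1 and Saa2 in hepatocyte-lineage-like cells. Hamp was at 1193 CPM in NEJ634, 38.6 in NEJ638, 1554 in NEJ654, 1514 in NEJ677 and 780 in NEJ687, so it was lowest in the library highest in Saa1, Apcs and Crp. Hamp2 was at 165, 49.9, 1888, 959 and 5.25 CPM in the same order of libraries. Lcn2, another inducible gene, was at 7158 to 20441 CPM in myelocyte-like cells of 5 libraries and at 5.11 to 303 CPM in hepatocyte-lineage-like cells.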
